A study of Ovis aries with 18 samples.

Results

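CCDC3 is 1 of the 5,810 genes in a table of 24,355 SNPs with read counts for both alleles in perirenal adipose tissue (PRAT) from 18 fetal lambs. It is represented by 1 SNP, as are 29.4% of the genes, and it was chosen by its reference and alternate read counts in these same data. The allele counts and shares below are therefore a description, with no test. The fetuses were untreated, wild type, pure bred merino singletons at 132 days of gestation, 16 female and 2 male, carried by unrelated ewes on a maintenance diet and sired by a common ram. Each fetus was 1 RNA-Seq library, and the reads at all SNPs totalled between 2,970,824 and 5,334,585 per library with a median of 4,486,796.

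CCDC3 (coiled-coil domain containing 3, also named favine) encodes a glycoprotein that is secreted by adipocytes and by the endothelial cells of blood vessels. In fat cell cultures its mRNA is known to increase as preadipocytes mature and to respond to insulin and to TNF. At a heterozygous SNP each read can be assigned to the chromosome it was transcribed from. Allelic imbalance (AI) is an excess of reads from 1 of the alleles in the same library, so that differences in library size or in the number of cells cancel.

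The SNP lies on chromosome 13 at position 16,541,301 of the Oar v3.1 assembly, where the authors annotated a synonymous variant in the coding sequence of CCDC3. It is written here as G16541301A, the reference base first, then the position counted from the start of chromosome 13, then the alternate base. Because the table holds no other SNP of the gene, the direction of imbalance could be compared across fetuses but not across SNPs. The SNP was covered by 108 to 417 reads per fetus, with a median of 202, and its mean of 228 reads was above that of 87.6% of all SNPs. UCP1, the uncoupling protein that defines brown fat, had a median of 9,462 reads per SNP and fetus in the same libraries, and 6 of 7 brown adipocyte markers were represented in the table.

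One library stood apart by its labels. RS929 is labelled female but was called heterozygous at 29.1% of the 244 SNPs on chromosome X, where the 15 other females were at 54.1% to 69.7% and the males at 32.4% and 25.4%. RS929 was heterozygous at the CCDC3 SNP, so values that rest on it are also given without it.

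Of the 18 fetuses, 5 were called homozygous for the reference allele (0/0), 10 heterozygous (0/1) and 3 homozygous for the alternate allele (1/1). Both males were among the 0/0 fetuses, and all 10 heterozygous fetuses were female by label. Since both homozygous genotypes occurred among offspring of a common sire, the sire carried both alleles if the calls are right. The files do not show which allele a heterozygous fetus had from its sire and which from its dam.

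The homozygous calls were free of reads from the other allele. The authors made the calls from these same RNA reads, so the absence of such reads is not a check of the calls. The 5 fetuses called 0/0 had 1,245 reads of the reference allele and 0 of the alternate allele, which allows a share of up to 0.241%. The 3 fetuses called 1/1 had 819 reads of the alternate allele and 0 of the reference allele, which allows up to 0.366%. Among all homozygous calls with at least 20 reads in the table, 86.8% had no read of the other allele. These limits, and the intervals below, cover counting error only, because reads without molecular identifiers are not independent molecules.

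In the heterozygous fetuses, the reads of CCDC3 ranged from mostly reference to mostly alternate allele. RS919 had 251 reference and 28 alternate reads, and RS920 had 210 and 26. RS929 had 159 and 18 reads. In these 3 fetuses the reference allele held 90.0%, 89.0% and 89.8% of the reads, which is 8.96, 8.08 and 8.83 times the reads of the alternate allele.

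At the other end, RS943 had 23 reference and 106 alternate reads, and RS910 had 43 and 142. RS902 had 35 and 86 reads, and RS930 had 57 and 138. The reference allele held 17.8%, 23.2%, 28.9% and 29.2% of the reads in these 4 fetuses, so that the alternate allele was between 2.42 and 4.61 times as abundant.

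The last 3 heterozygous fetuses lay between these ends. RS926 had 117 reference and 69 alternate reads (62.9% reference). RS933 had 109 and 125 reads (46.6%) and RS937 had 140 and 166 (45.8%). The exact 95% binomial interval of the share held 50% in RS933 and RS937 and lay wholly to 1 side of 50% in the 8 other fetuses.

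**Figure D1:**
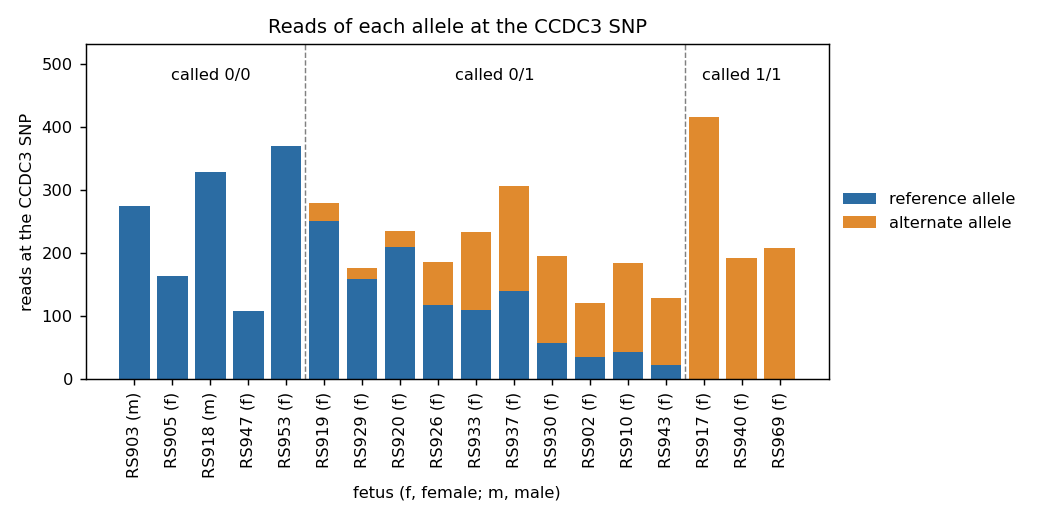
Reads of the reference (blue) and alternate (orange) allele at the CCDC3 SNP, stacked, in each of the 18 fetuses, ordered by genotype call and then by the share of the reference allele. The 10 heterozygous fetuses run from 251 reference and 28 alternate reads in RS919 to 23 and 106 in RS943, while no homozygous fetus had a read of the other allele.

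Of the 10 heterozygous fetuses, 4 had more reference reads and 6 more alternate reads. The direction of each fetus was the same when its own median reference share over all its heterozygous SNPs, between 0.521 and 0.524, was taken as equal in place of 50%. The mean reference share was 0.523 ± 0.288 (SD, n = 10 fetuses), with a median of 0.462. For 190.5 reads, the median depth of the 10 fetuses, counting error alone gives an SD of 0.0362 around an equal share. The share of whichever allele was higher exceeded 0.5 by 0.240 ± 0.140 (SD, n = 10).

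Summed over the 10 fetuses, as in the test of the study, the reference allele had 1,144 reads and the alternate allele 904, a reference share of 0.559 (exact 95% interval 0.537 to 0.580). The Poisson likelihood ratio test on summed reads called this SNP, and it called 45.0% of all tested SNPs at an unadjusted P-value under 0.05. With the fetuses as replicates, in a moderated quasi-binomial F test that called 34.4% of the SNPs, CCDC3 was not called. Because its read counts chose the gene, these calls are not evidence about it. The summed share came down to 0.505 without RS919, 0.515 without RS920 and 0.526 without RS929, and the test on summed reads no longer called the SNP without RS919 or without RS920.

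**Figure D2:**
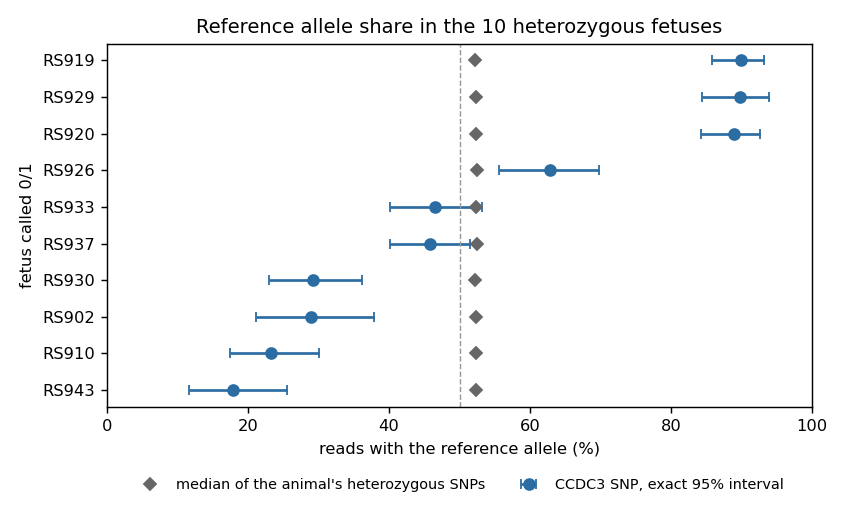
Share of reads with the reference allele at the CCDC3 SNP in each heterozygous fetus (circles, with exact 95% binomial intervals), beside the median share over all heterozygous SNPs of the same fetus (diamonds). The CCDC3 values spread from 17.8% to 90.0% and the diamonds all sit just above 50%, marked by the dashed line.

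The level of each allele was expressed as its reads per 1,000,000 reads at all SNPs of the library (RPM). In the 10 heterozygous fetuses the reference allele ranged from 6.22 to 54.4 RPM and the alternate allele from 4.61 to 33.5. In RS943, RS910, RS902 and RS930 the alternate allele was at 28.7, 30.7, 28.9 and 30.1 RPM, close to the 33.5 and 31.9 of RS933 and RS937. The reference allele of the same 4 fetuses was at 6.22, 9.31, 11.8 and 12.4 RPM, against 29.2 and 26.9 in RS933 and RS937. The alternate allele spanned 28.7 to 33.5 RPM in these 6 fetuses and the reference allele 6.22 to 29.2 RPM. RS926, outside both ranges, had 18.4 RPM of the alternate and 31.2 of the reference allele.

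In RS919, RS920 and RS929 the alternate allele was at 6.07, 5.82 and 4.61 RPM, the lowest values of the 10 fetuses. Their reference allele, at 54.4, 47.0 and 40.7 RPM, was the highest of the 10. For comparison, the total level of a homozygous fetus divided by its 2 alleles ranged from 14.01 to 41.0 RPM in the 0/0 fetuses and from 21.4 to 39.1 in the 1/1 fetuses. The lower allele of RS919, RS920, RS929, RS943, RS910, RS902 and RS930 lay below both ranges. The higher allele of RS919 and RS920 lay above both ranges, and that of RS929 above the range of the 1/1 fetuses only. In RS943, RS910, RS902 and RS930 the higher allele lay within both.

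**Figure D3:**
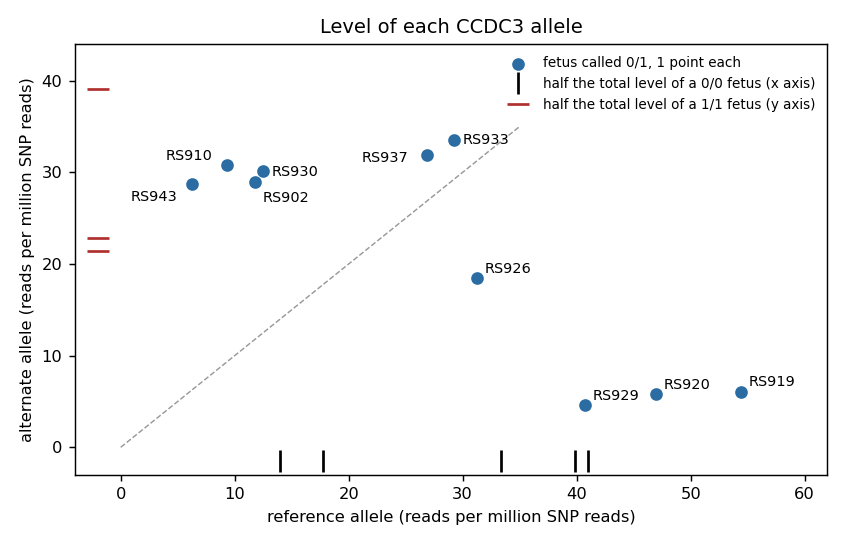
Level of the alternate allele against that of the reference allele of CCDC3, both in RPM, in the 10 heterozygous fetuses; the dashed line marks equal levels, and the short ticks mark the total level divided by 2 of each 0/0 fetus (along the x axis) and each 1/1 fetus (along the y axis). RS919, RS920 and RS929 sit at the lower right with 4.61 to 6.07 RPM of the alternate allele, and RS943, RS910, RS902 and RS930 at the upper left with 6.22 to 12.4 of the reference allele.

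The total of both alleles was not used to choose the gene and could be tested. Total CCDC3 ranged from 28.0 RPM in RS947 to 81.9 in RS953, a span of 2.92-fold. The SD of its log2 level over the 18 fetuses was 0.44, larger than that of 92.3% of the 5,810 genes, whose median was 0.23. CCDC3 rests on 1 SNP, whereas the level of most genes is a mean over several. In bulk tissue, fewer cells that express a gene and less RNA per cell cannot be told apart.

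The total level ranged from 28.0 to 81.9 RPM in the 5 fetuses called 0/0, from 34.9 to 62.8 in the 10 called 0/1 and from 42.9 to 78.2 in the 3 called 1/1, so the genotypes overlapped, and no relation with genotype passed its test. Across the 18 fetuses, the log2 level and the number of alternate alleles gave Pearson's r = -0.03 (permutation test, two-sided, p = 0.898) and Spearman's rho = -0.06 (p = 0.814). With 1 SNP there was 1 relation, and adjustment leaves these values as they are. Leaving out any 2 of the 8 homozygous fetuses, which are equally far from the median genotype, gave r between -0.45 and 0.33. Among the 16 females alone r was 0.23 (permutation p = 0.395), the opposite sign.

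The males had 66.8 and 79.8 RPM in total, compared with a median of 45.5 and a range from 28.0 to 81.9 in the 16 females, of which 2 reached the level of the lower male. The mean log2 level was 6.19 in the males and 5.59 in the females, a difference of 0.60 (exact permutation test over all ways to choose 2 of the 18 fetuses, two-sided, p = 0.0719). The difference did not pass 0.05, but it did without RS917 (p = 0.0368), RS947 (p = 0.0441) or RS953 (p = 0.0294) in the same exact permutation test, and without RS929 it was 0.60 (exact permutation p = 0.0809). Both males were also 0/0 at the SNP, and sex and genotype cannot be told apart in them. The females called 0/0 were at 28.0, 35.5 and 81.9 RPM.

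Levels of cell type markers were compared with the total level of CCDC3, and their part in it was not tested further. Over the 18 fetuses, the mean log2 level of the 5 endothelial markers in the table gave r = 0.32 and rho = 0.28 (permutation p = 0.201 and p = 0.269), and r = 0.18 without the 2 most distant fetuses. The 2 adipocyte markers, ADIPOQ and PLIN1, gave r = -0.17 and rho = -0.10 (permutation p = 0.503 and p = 0.699), and r = -0.10 without 2. The largest of the 6 relations computed was with the 3 macrophage markers, at r = -0.55 (permutation p = 0.0164, Benjamini-Hochberg adjusted 0.0986) and rho = -0.42 (p = 0.0818, adjusted 0.491), and r fell to -0.24 without 2 fetuses. The brown adipocyte, stromal and adrenal cortex markers gave r = -0.25, -0.16 and 0.06 (permutation p = 0.313, 0.516 and 0.816) and rho = -0.27, -0.15 and 0.05 (permutation p = 0.274, 0.556 and 0.855). Without the 2 most distant fetuses r was 0.14, -0.08 and -0.28, so the sign changed for the brown adipocyte and adrenal cortex markers. No adjusted value passed 0.05, and skeletal muscle and kidney markers had no SNP in the table.

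Among 2,930 genes with at least 3 SNPs on other chromosomes, the levels with the highest positive correlation to that of CCDC3 across the 18 fetuses were those of WDR53, FHOD1, VEZT, PLXND1 and HGSNAT, with Pearson's r of 0.69, 0.66, 0.66, 0.66 and 0.64 where the median gene had 0.07. PLXND1 is a semaphorin receptor of endothelial cells and FHOD1 a formin that assembles actin. In the opposite direction, CCDC69, MRPL46 and SCARA5 had r of -0.71, -0.69 and -0.68, and are named after their values were seen. The likeness was picked as the highest of many and is given as a description, over libraries that share their depth as the scale.

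The spread of the CCDC3 share between fetuses was set beside that of the other SNPs. At 24,103 SNPs with at least 5 heterozygous fetuses of 20 reads or more, the SD of the share had a median of 0.0718, with quartiles of 0.0503 and 0.0953, and 99% of SNPs lay below 0.168. The SD of 0.288 put CCDC3 in place 6, and without RS929 its SD was 0.272. At 3,717 of 24,205 SNPs (15.4%) the fetuses differed beyond counting error (Pearson chi-square test, Benjamini-Hochberg adjusted P-value under 0.05), and CCDC3 was among them with a dispersion of 65.7 where 1 is counting error. Since the gene was chosen for this pattern, its place is not evidence about it.

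The 5 SNPs with a larger SD than CCDC3 belonged to IGF2R and ESRRA, named here after their values were seen. At 2 SNPs of IGF2R, the imprinted receptor that removes IGF2, the SD was 0.355 over 8 fetuses and 0.312 over 6. At these SNPs more reads came from the reference allele in 6 and 5 fetuses and from the alternate allele in 2 and 1, with shares from 0.0983 to 0.906 and from 0.113 to 0.923. At 3 SNPs of ESRRA, a nuclear receptor that regulates mitochondrial genes, the SD ranged from 0.308 to 0.319 over 13 fetuses. Of these fetuses, 9 had the reference and 4 the alternate allele higher. The 3 SNPs are labelled as downstream variants and lie at adjoining bases. The same reads can cover all 3, so they are not independent of each other. A pattern with at least 2 fetuses at or above 75% reference reads and at least 2 at or below 25% was found at 16 SNPs of 10 genes, 0.0664% of those examined, CCDC3 included.

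**Figure D4:**
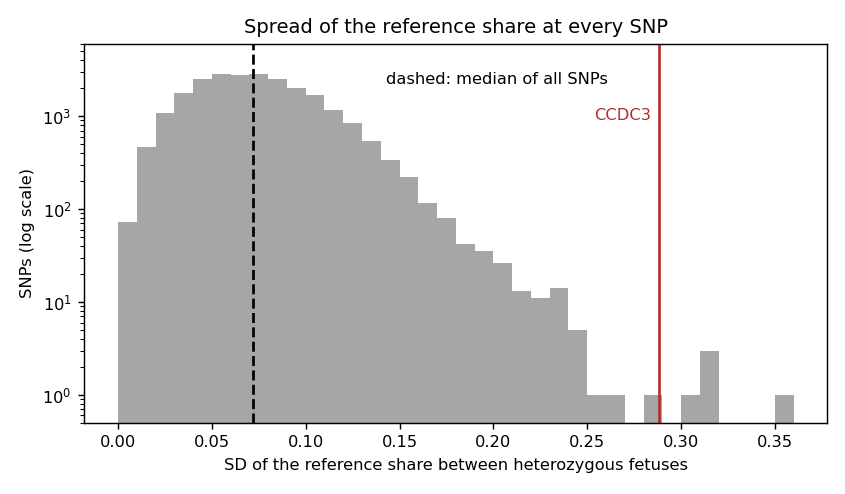
Number of SNPs (log scale) by the SD of the reference share between heterozygous fetuses, over 24,103 SNPs with at least 5 heterozygous fetuses of 20 reads or more. The dashed line is the median SNP at 0.0718 and the red line is CCDC3 at 0.288, with 5 SNPs beyond it.

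SNPs of other genes in the region had a smaller spread, as had nearly all SNPs of the table. Within 1 Mb there were 24 SNPs in 9 genes, 13 before the CCDC3 SNP in UPF2, DHTKD1, NUDT5 and CDC123 and 11 after it in YME1L1, ABI1, PDSS1, CCNY and CUL2. In the RefSeq gene order of the ARS-UI_Ramb_v3.0 assembly, CAMK1D lies next to CCDC3 on the side of CDC123, and no SNP of it was in the table. The SD of the share was below that of CCDC3 at all 24 SNPs. It ran from 0.0202 at a SNP of CDC123 to 0.128 at a SNP of DHTKD1, with a median of 0.0493. By this SD, CCDC3 was in place 6 of 24,103 SNPs, so a smaller SD nearby says little about the region. The summed reference share lay between 0.450 and 0.570, and 9 of the 24 SNPs passed the likelihood ratio test, against 45.0% of all SNPs.

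The nearest SNPs were in YME1L1, a protease of the inner mitochondrial membrane. At the first of them, 193,955 bases from the CCDC3 SNP, the reference allele was higher in all 10 heterozygous fetuses, with shares from 0.502 to 0.575. At a missense SNP 207,341 bases away, the share ranged from 0.434 to 0.597 in 9 fetuses. The nearest SNP on the other side, 642,825 bases away in CDC123, had shares from 0.444 to 0.521 in 10 fetuses.

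**Figure D5:**
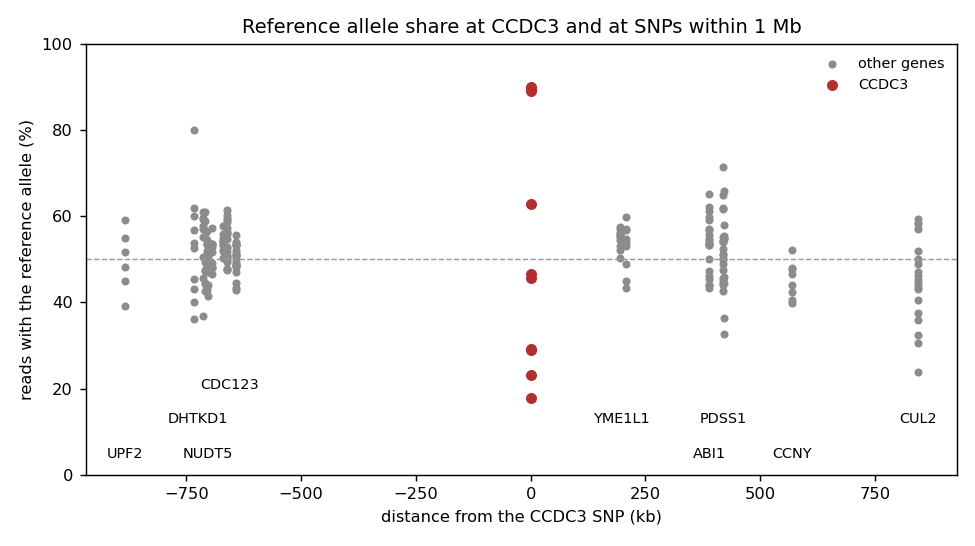
Share of reads with the reference allele in each heterozygous fetus (1 point per fetus and SNP, fetuses with at least 20 reads) at the CCDC3 SNP (red) and at the 24 SNPs of other genes within 1 Mb (grey), by distance. The CCDC3 shares run from 17.8% to 90.0%. The SD at every grey SNP is below that of CCDC3, as it is at nearly all SNPs of the table.

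The genotypes of the region were then compared with the CCDC3 share of the 10 heterozygous fetuses. At the missense SNP of YME1L1, RS919, RS920 and RS929 were called 0/0 and had CCDC3 shares of 0.890 to 0.900, and the 7 called 0/1 had shares of 0.178 to 0.629. The genotypes of a SNP of CDC123 642,825 bases before CCDC3, 2 SNPs of ABI1 388,769 and 388,772 bases after it and a SNP of CUL2 843,089 bases after it separated the same fetuses. At a SNP of PDSS1 421,608 bases away, the fetuses called 1/1 had CCDC3 shares of 0.890 to 0.900, those called 0/0 had 0.289 to 0.629, and the 2 called 0/1, RS943 and RS910, had 0.178 and 0.232.

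In all, 22 of the neighbouring SNPs placed at least 3 of the 10 fetuses in each of at least 2 genotypes, and at 6 of them the CCDC3 shares did not overlap between genotypes. Over the whole table this held at 2.43% of 17,574 such SNPs. Without RS929, the genotype of RS919 and RS920 at these SNPs held only those 2 fetuses, under the minimum of 3, and 0 of the 11 SNPs that still met it were free of overlap, against 2.38% in the table. With at least 2 fetuses in each of 2 genotypes, it was 6 of 24 SNPs with RS929 and 6 of 24 without it, compared with 3.02% and 3.62% of SNPs in the table. Neighbouring SNPs are inherited in blocks and the fetuses are offspring of a common sire, so these SNPs are not independent of each other. At each of the 6 SNPs, RS919, RS920 and RS929 alone held 1 of the genotypes. The comparison was added after seeing the data and rests on the shares that chose the gene, so it is not evidence about the gene.

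RS910 and RS943, the fetuses with the lowest reference shares, had the same genotype as each other at all 24 neighbouring SNPs. RS920 and RS929, with CCDC3 shares of 0.890 and 0.898, also had the same genotype at all 24. The 45 pairs of heterozygous fetuses had the same genotype at 1 to 24 of these SNPs, with a median of 9, and no pair but these reached 24. Pairs with unlike CCDC3 shares came next. RS926 (share 0.629) had the same genotype as RS937 (0.458) at 21 SNPs and as RS930 (0.292) at 19. RS919 (0.900) had the same genotype as RS920 and as RS929 at 18 SNPs each, and so had RS930 (0.292) and RS937 (0.458) at 18. A relation between likeness of genotype and the CCDC3 share was not tested. At a SNP of ABI1 388,691 bases away, RS910, RS930 and RS943 were the fetuses called 1/1, with CCDC3 shares of 0.178 to 0.292, and the 7 called 0/1 had 0.289 to 0.900. The range of the 1/1 fetuses reached just past RS902, which was called 0/1.

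Genes in 3 lists related to the known biology of CCDC3 were examined beside it. Of 40 secreted factors of fat, 16 had SNPs in the table, and 56 of their 88 SNPs (63.6%, against 45.0% of all SNPs) passed the likelihood ratio test, 38 with the reference and 18 with the alternate allele higher. The quasi-binomial F test called 36 of the 88, against 34.4% of all SNPs. The median SD of the share between fetuses was 0.0465 and the highest 0.151, at a SNP of PM20D1, a secreted enzyme that makes N-acyl amino acids. The fetuses differed beyond counting error at 32 of the 88 SNPs (36.4%, against 15.4% of all SNPs). The likelihood ratio test and the test for differences between fetuses gain power with read depth, which was not matched to that of all SNPs. Depth was not matched for the quasi-binomial F test either. By gene, reads per SNP and fetus ran from 29.3 in PLTP to 13,411 in ADIPOQ, where the median SNP of the table had 65.5. COL6A3 alone held 33 of the 88 SNPs. ADIPOQ, which encodes adiponectin, had 12 of 13 SNPs past the test at about 13,411 reads per SNP and fetus, with a median reference share of 0.524 and no SD above 0.0694. By the median share of each gene, those farthest from the median SNP were 0.116 at the SNP of NNAT, a membrane proteolipid that is imprinted in mammals, heterozygous in 2 fetuses, 0.301 at the SNP of APOE, the lipid carrier apolipoprotein E, and 0.418 over 4 SNPs of PM20D1. Single SNPs of other genes could lie farther out, such as a SNP of COL6A3, a collagen chain, at 0.261, where the median of its 33 SNPs was 0.517.

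Of 23 genes of lipid storage and lipolysis, 16 had SNPs in the table, and 63 of 82 SNPs (76.8%, against 45.0% of all SNPs) passed the test, 52 with the reference allele higher and 11 with the alternate allele higher. The quasi-binomial F test called 46 of the 82, against 34.4% of all SNPs. PNPLA2, the adipose triglyceride lipase that starts lipolysis, had 1 SNP with a share of 0.488, and PPARG had none. PLIN4, a coat protein of lipid droplets, had a median share of 0.644 over 10 SNPs, 8 of them past the test, and CIDEA, another droplet protein, had a share of 0.482. The highest SD between fetuses in this list was 0.117, and the median was 0.0443. The fetuses differed beyond counting error at 42 of the 82 SNPs (51.2%, against 15.4% of all SNPs). By gene, reads per SNP and fetus ran from 179 in FASN to 3,553 in DGAT2, where the median SNP of the table had 65.5. The likelihood ratio test and the test for differences between fetuses gain power with read depth. The percentages of this list and of all SNPs are therefore not at like depth, and depth was not matched for the quasi-binomial F test either. FASN, ACACA and PLIN4 held 18, 13 and 10 of the 82 SNPs.

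Of 19 genes of TNF and NF-kB signalling, 7 had SNPs in the table, and 9 of 28 SNPs (32.1%, against 45.0% of all SNPs) passed the test, 6 with the reference and 3 with the alternate allele higher. The quasi-binomial F test called 7 of the 28, against 34.4% of all SNPs. NFKBIA, the inhibitor that holds NF-kB in the cytoplasm, had a median share of 0.864 over 2 SNPs, heterozygous in 5 and 2 fetuses. RIPK1, a kinase of the TNF receptor complex, had a median share of 0.468 over 8 SNPs, of which 5 passed, and CHUK, a kinase that acts on NFKBIA, had 0.477 at 1 SNP that did not pass. The median SD of the list was 0.0790 and the highest 0.150, and the fetuses differed beyond counting error at 4 of the 28 SNPs (14.3%, against 15.4% of all SNPs). By gene, reads per SNP and fetus ran from 26.1 in TNFRSF1B to 215 in TNFRSF1A. In none of the 3 lists did a SNP with at least 5 heterozygous fetuses reach the SD of CCDC3. Only 5 of the 24,103 such SNPs in the table had a larger SD, so this says little about the lists.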

How the data were processed

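The deposited values are raw counts of reads of each allele at each SNP in each fetus, without normalization, with genotype calls. The authors mapped the paired reads with STAR to Oar v3.1 (maximum of 10 mismatches, unique positions), made genotype calls from the RNA reads themselves with GATK (named in the submitters' processing notes) and filtered SNPs on read depth per allele. Alternate alleles can map less readily, and the median reference share over tested SNPs was 0.519. The authors' own test statistic, P-value, higher allele and summed proportion were not used here. The columns written PS910 were taken as RS910.

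Shares, levels and tests were computed with Python 3.11.15, scipy 1.17.1 and, for the quasi-binomial F test, limma 3.58.1. Log2 levels are of reads plus 0.5 in RPM. Permutation tests used 100000 resamples unless exact. The SNP tests were run on simulated reads with the same share in all fetuses at a SNP. Those reads have no spread between fetuses beyond counting error, so they cannot show how the tests treat a SNP like that of CCDC3. Genes outside CCDC3 were named by rule: UCP1 as the tissue marker, genes with SNPs within 1 Mb, the 5 most alike in level, and per list the 3 farthest from the median share plus PPARG, PNPLA2 and ADIPOQ. CAMK1D was named from the gene order, and IGF2R, ESRRA, COL6A3, CCDC69, MRPL46 and SCARA5 after their values were seen. CCDC3 and the lists were chosen with earlier results of these data known, and the comparison of neighbouring genotypes was added after seeing the data.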

Additional observations from a re-analysis of the deposited data

How the results depend on the processing

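Each heterozygous fetus kept its direction when its own median share was taken as equal. The reference share of CCDC3 was 0.523 as an unweighted mean of fetuses and 0.523 with reads sampled to 50 per fetus. When each heterozygous fetus was left out, the summed reference share was 0.505 to 0.591 and the SD between fetuses 0.272 to 0.305. These shares were above 0.5, but without RS919 (0.505) or RS920 (0.515) the summed share was below 0.519, the median over tested SNPs. The summed test called the CCDC3 SNP in 8 of the 10 sets that leave out a heterozygous fetus, a count of 0 to 1, and did not call it without RS919 or RS920 (added after seeing the data). The quasi-binomial F test called 0 of 1 CCDC3 SNPs. Over the table, 10,901 SNPs were called, and a minimum of 30 reads of each allele in 5 fetuses left 5,667, by the smaller number of SNPs tested. The difference of level between sexes ranged from 0.55 to 0.65 when each female was left out, with exact permutation p from 0.0294 to 0.0882. It was 0.73 without the male RS903 and 0.47 without the male RS918. Either set leaves 1 male, too few for the permutation test to decide, so only the difference is given. The correlation of level with genotype was 0.23 in the females alone, which was added after seeing the data. The cause was not tested. The number of neighbouring SNPs whose genotypes held CCDC3 shares that do not overlap was 0 without RS929, by the minimum of 3 fetuses per genotype. A level from other SNPs of CCDC3 was not run, because the table holds 1. No paired analysis was possible because each fetus is a separate animal and the labels pair none. With 10 heterozygous fetuses and 1 SNP, the depth of 121 to 306 reads limits a share in a single fetus to the intervals given.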
